A study of Mus musculus with 8 samples.

Results

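The STAT transcription factors examined here were Stat2, Stat3, Stat4, Stat5a, Stat5b and Stat6, 6 of the 54532 genes in the count files, taken by matching their Ensembl identifiers to these symbols and not by any measured value. They were followed in poly(A) RNA of primary mouse islets, the endocrine clusters of the pancreas that secrete insulin and glucagon, in 4 groups of 2 libraries. Wild-type islets had DMSO, the solvent, in one group and DMXAA in the other, and islets of mice labelled Sting-/- had the same 2 treatments. DMXAA, a small-molecule agonist of mouse STING, was given at 50 µg/mL for 3 h after overnight recovery in culture, and the mice were 25 to 30 weeks old. STING is an adaptor that links the sensing of DNA in the cytosol to type I interferon genes. The labels name no strain, sex or diet, no allele beyond Sting-/-, and do not say whether a group's 2 libraries are separate or pooled mice. The p-values therefore rest on a spread between libraries that may be technical only.

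STAT proteins wait in the cytoplasm and are activated at cytokine receptors. A bound cytokine brings JAK kinases together, the kinases phosphorylate the receptor and then a STAT on a tyrosine, and STAT dimers enter the nucleus and bind DNA. STAT2 works in a complex with IRF9 that type I interferon activates and that binds interferon-stimulated response elements. STAT3 answers the interleukin-6 family, STAT4 interleukin-12, STAT6 interleukin-4 and interleukin-13, and STAT5A and STAT5B prolactin, growth hormone and several interleukins. In beta cells the prolactin receptor and STAT5 are known for the growth of islets in pregnancy. Activation is a change of the protein, so the mRNA levels given here measure the supply of each STAT and not its activity.

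Total counts per library ranged from 15624020 to 19601850. The count of Sting1, the targeted gene, was 39 and 41 in wild-type and 48 and 19 in knockout libraries under DMSO, against 23 and 39 in wild-type and 35 and 27 in knockout libraries under DMXAA, so it was not lower under the knockout label (log2 difference under DMSO 0.03, SE 0.47, adjusted p = 0.984). Which part of the gene was deleted is not given in the sources used here; the count thus checks the label only in part, and the libraries are called knockout-labelled throughout. Marker genes of beta cells summed to between 162776 and 323065 CPM (reads relative to the scaled library size), as in islets. The spread within each group exceeded sampling noise: the chi-square of the 2 libraries, divided by its degrees of freedom, ran from 6.83 to 53.8. Replicate 2 of knockout-labelled DMXAA had the lowest scaling factor, 0.872, and is named where a result rests on it.

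The DNA upstream of the genes is shown first for Stat2, the member whose mRNA passed the test. Stat3 and Stat6, whose mRNAs did not pass it, follow so that the letters can be compared. The sequences come from RefSeq windows on GRCm38.p6, are written 5′ to 3′ on the strand of the gene, and, apart from the 40 bases of Stat4 around its match, stop at the base before the RefSeq start of transcription. Capitals mark the core of an interferon-stimulated response element, GAAANNGAAA or its reverse TTTCNNTTTC.
Stat2, chr10:128270248-128270497, plus strand: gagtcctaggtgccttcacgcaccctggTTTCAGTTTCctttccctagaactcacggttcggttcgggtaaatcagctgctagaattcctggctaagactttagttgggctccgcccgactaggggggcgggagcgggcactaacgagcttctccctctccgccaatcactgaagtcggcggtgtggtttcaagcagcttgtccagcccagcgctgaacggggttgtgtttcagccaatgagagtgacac
Stat3, chr11:100939541-100939790, minus strand: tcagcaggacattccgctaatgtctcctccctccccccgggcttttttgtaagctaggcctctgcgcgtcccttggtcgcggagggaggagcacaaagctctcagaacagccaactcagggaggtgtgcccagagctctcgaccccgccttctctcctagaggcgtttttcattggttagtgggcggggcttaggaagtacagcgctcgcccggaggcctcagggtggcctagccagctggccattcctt
Stat6, chr10:127642736-127642985, plus strand: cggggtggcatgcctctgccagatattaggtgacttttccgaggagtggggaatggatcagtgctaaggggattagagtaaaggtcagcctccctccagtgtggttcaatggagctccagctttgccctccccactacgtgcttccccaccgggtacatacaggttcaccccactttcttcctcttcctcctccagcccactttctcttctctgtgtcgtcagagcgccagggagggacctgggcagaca
Stat4, chr1:52008128-52008167, plus strand, from the window of its second RefSeq start: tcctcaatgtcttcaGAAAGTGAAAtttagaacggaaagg

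All 6 members had a RefSeq window of 250 bases before to 50 bases after a start, and 2 of them, Stat2 and Stat4, held the element core. In Stat2 the match TTTCAGTTTC began 222 bases upstream of the start, and in Stat4 the match GAAAGTGAAA began 97 bases upstream of the second start, while the window of its first start held none. Of all 27025 genes with a window, 3.99% held the core, and of all 32851 windows 3.44%. The general STAT dimer palindrome TTCNNNGAA, the same on both strands, was in none of the members' windows and in those of 9.55% of all genes (8.3% of windows). The form with a wider gap that STAT6 is known to bind, TTCNNNNGAA, was in 1 member, Stat2, as TTCCCTAGAA beginning 210 bases upstream, and in the windows of 8.01% of all genes (6.95% of windows). These matches describe the letters of these windows and show no binding.

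Stat2 was the only member whose mRNA passed the test after DMXAA, and it was higher in the treated wild-type libraries. In wild-type islets its level was 66.7 and 80.9 CPM without DMXAA, and 169 and 196 CPM with it. Both treated libraries stood above both controls with no overlap, and 46.3% of all genes tested had groups that did not overlap in this comparison. The rise was 2.47-fold (log2 fold change 1.30, SE 0.20, 95% interval 0.87 to 1.74, adjusted p = 0.00280 by edgeR's quasi-likelihood test), rank 117 of the 17055 genes tested when ordered by p. Of all genes tested, 1.48% were called in this comparison, 1.11% as higher. This call did not hold when wild-type DMSO replicate 1 was left out, with a log2 fold change of 1.19 and an adjusted p of 0.0794.

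In the knockout-labelled libraries the Stat2 level was 73.2 and 73.0 CPM under DMSO, and under DMXAA it was 72.8 and 44.9 CPM. The treated libraries lay at or below the controls and not above them. The log2 fold change was -0.31 (SE 0.20, 95% interval -0.75 to 0.12, adjusted p = 0.833), in a comparison where 0.375% of genes were called, 0.164% as higher and 0.211% as lower. The low value came from replicate 2 of knockout-labelled DMXAA, and without that library the fold change was 0.01. The DMXAA effect on Stat2, knockout-labelled minus wild-type, differed by -1.62 on the log2 scale (SE 0.28, 95% interval -2.23 to -1.001, adjusted p = 0.0105). In this test 1.2% of genes were called, 0.668% with a positive and 0.528% with a negative difference. The sign of the difference does not tell which genotype had the stronger effect. The Stat2 difference was no longer called with wild-type DMSO replicate 1 left out, nor without knockout-labelled DMSO replicate 1 or replicate 2.

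Between the genotypes under DMSO the Stat2 difference was not called (knockout-labelled minus wild-type, log2 difference -0.01, 95% interval -0.45 to 0.42, adjusted p = 0.983). Under DMXAA the knockout-labelled libraries were 3.09-fold lower (log2 difference -1.63, SE 0.20, adjusted p = 0.000405), with 2.39% of genes called, 1.02% as higher and 1.37% as lower. This call held with each of the 8 libraries left out in turn, with log2 differences from -2.02 to -1.33. These comparisons share libraries and are not independent of each other. The macrophage markers, 14 genes, summed to 82.5 to 118 CPM in wild-type DMSO and 78.6 to 79.7 CPM in wild-type DMXAA libraries. Within these sums Lyz2 alone went from 38.2 and 12.2 to 6.46 and 5.67 CPM. The list was mixed in direction: 6 of the 14 had a log2 fold change above 0. Cd14 was among them (6.05 and 3.89, then 8.83 and 10.1 CPM). Of the 14 markers 0 were called in wild-type islets with DMXAA (5 at an unadjusted p under 0.05). In knockout-labelled DMXAA libraries they summed to 96.2 and 181 CPM. Between genotypes under DMXAA 12 of the 14 had a log2 difference above 0. Of these, 1 was called higher with the knockout label, against 1.02% of all genes tested. Of 13 endothelial markers 3 were called lower with DMXAA in wild-type islets, against 0.375% of all genes tested. Between genotypes under DMXAA 8 were called higher with the knockout label than without it, against 1.02% of all genes. Under DMXAA the acinar markers, 13 genes, summed to 337 and 398 CPM in knockout-labelled and to 1470 and 2784 CPM in wild-type libraries, with none called (8 at an unadjusted p under 0.05). The part of these cell types in the Stat2 differences was not tested. In bulk RNA a change in the share of a cell type and a change of RNA per cell cannot be told apart.

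**Figure D1:**
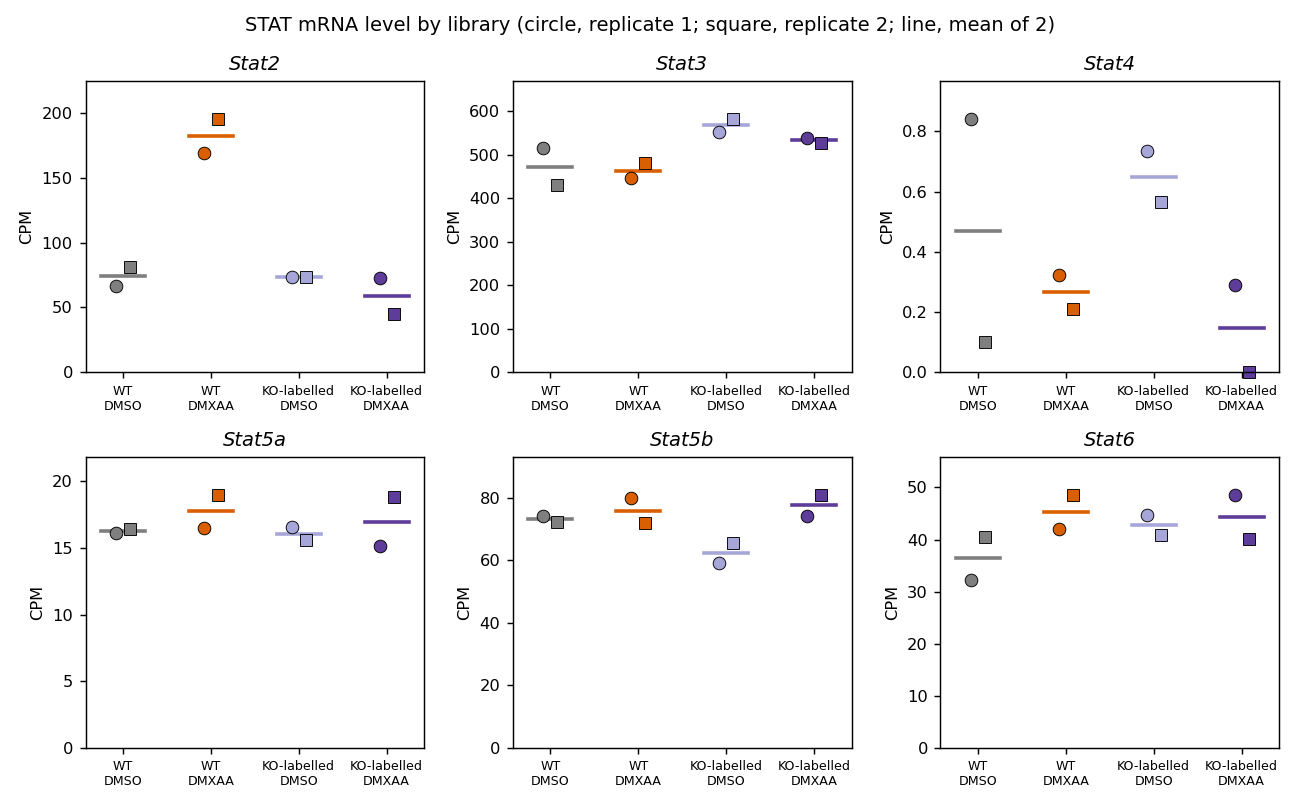
CPM of each STAT gene in each of the 8 libraries (y axes start at 0 and differ between genes), by group on the x axis; circles are replicate 1, squares replicate 2, and lines the mean of the 2. Stat2 stands at 169 and 196 CPM in wild-type islets with DMXAA, against 44.9 to 80.9 CPM in the other 6 libraries, and the lowest Stat5b pair, 59.1 and 65.7 CPM, is that of knockout-labelled DMSO.

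Stat3, the member that answers interleukin-6 and its relatives, was the most abundant of the 6 mRNAs per kb of exon and was called in no comparison. Its level was 515 and 430 CPM in wild-type DMSO, 447 and 481 CPM in wild-type DMXAA, 553 and 583 CPM in knockout-labelled DMSO, and 540 and 526 CPM in knockout-labelled DMXAA libraries. The wild-type DMXAA libraries lay within the range of the wild-type DMSO libraries, and all 4 knockout-labelled libraries lay above all 4 wild-type ones. The wild-type effect of DMXAA was -0.03 (95% interval -0.36 to 0.30, adjusted p = 0.961) and that under the knockout label -0.09 (95% interval -0.42 to 0.24, adjusted p = 0.978), both on the log2 scale. The difference between genotypes did not pass the test, at 0.26 under DMSO (95% interval -0.07 to 0.59, adjusted p = 0.496) and 0.20 under DMXAA (adjusted p = 0.625). Under DMSO, 46.7% of all tested genes had libraries of the 2 genotypes that did not overlap, and under DMXAA 44.4%. A separation of 2 libraries from 2 was thus common. The share of genes with all 4 libraries of a genotype apart from the other 4 was not computed.

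Stat4, which mediates the answer of T cells and natural killer cells to interleukin-12, was close to the limit of detection. Its raw counts were 16 and 2 in wild-type and 11 and 10 in knockout-labelled libraries under DMSO, and 6 and 4 in wild-type and 6 and 0 in knockout-labelled libraries under DMXAA, 55 in all. The count of 0 allows a level of up to 0.176 CPM, the value of 3 counts in that library. No comparison of Stat4 passed the test, and the intervals were wide, from -2.91 to 1.36 for the wild-type effect and from -4.28 to 0.32 for that under the knockout label on the log2 scale. A difference of a few fold in Stat4 was thus not detectable at this depth.

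Stat4 was highest, at 0.842, 0.734 and 0.566 CPM, in wild-type DMSO replicate 1 and the 2 knockout-labelled DMSO libraries. The B cell markers, 8 genes, were highest in the same 3 libraries, with summed levels of 25.6, 87.8 and 72.5 CPM against 2.75 to 10.2 CPM in the other 5. The markers of T cells and natural killer cells, 12 genes without Il7r, which alone made up most of their sum in several libraries, reached 10.003 and 8.21 CPM under DMSO with the knockout label, 3.31 CPM in wild-type DMSO replicate 1 and between 1.43 and 3.90 CPM in the other 5. Cd3e, a chain of the T cell receptor complex, had 20 and 22 counts in knockout-labelled DMSO libraries and 0 to 3 in the others. Of the 12 genes 2 to 7 were at 0 in each library, with Ncr1, a defining natural killer cell receptor, at 0 in all 8. The part of these cells in the Stat4 level was not tested. Part of the exons of Stat4, 1033 bp, is also annotated to the predicted gene Gm28177 on the same strand, which had 0 to 8 counts.

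Stat5a and Stat5b, the near-identical pair that prolactin and growth hormone activate, were called in no comparison. Stat5a was at 16.1 and 16.4 CPM in wild-type DMSO, 16.5 and 19.0 CPM in wild-type DMXAA, 16.5 and 15.6 CPM in knockout-labelled DMSO, and 15.1 and 18.8 CPM in knockout-labelled DMXAA libraries. Both wild-type DMXAA libraries were above both wild-type DMSO libraries, but the change was small (log2 fold change 0.13, 95% interval -0.27 to 0.52, adjusted p = 0.809). Of all genes tested, 46.3% had wild-type DMXAA and DMSO libraries that did not overlap, and 3 of the 6 members did. In the knockout-labelled libraries the 2 treatments overlapped, with a log2 fold change of 0.08 (95% interval -0.33 to 0.48, adjusted p = 0.987).

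Stat5b was at 74.2 and 72.2 CPM in wild-type DMSO, 79.9 and 71.9 CPM in wild-type DMXAA, 59.1 and 65.7 CPM in knockout-labelled DMSO, and 74.3 and 81.0 CPM in knockout-labelled DMXAA libraries. The knockout-labelled DMSO libraries were the lowest pair. The DMXAA effect was 0.05 in wild-type (95% interval -0.25 to 0.36, adjusted p = 0.905) and 0.32 in knockout-labelled libraries (95% interval 0.01 to 0.62, adjusted p = 0.664). The second had an unadjusted p of 0.0449, rank 1153 of the 17055 genes tested, and did not pass over all genes. The difference between the 2 effects, 0.26, did not pass either (adjusted p = 0.762). In that knockout-labelled comparison 4 of the 6 members had libraries that did not overlap, against 35.8% of all genes tested.

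The 2 Stat5 genes start 8627 bp apart on chromosome 11 and point away from each other. Their longest coding sequences were identical at 90.7% of 2294 aligned bases, whereas the other 14 pairs of members shared between 58.3% and 65.3%. Of all 150 bp stretches of their transcripts, 2.21% of those of Stat5a and 3.16% of those of Stat5b also occurred in the other gene, and for 100 bp stretches the shares were 3.44% and 4.79%. How reads from these stretches were assigned is not stated in the sources used, and the split of reads between the 2 genes is uncertain. The ratio of Stat5b to Stat5a in CPM per kb of exon was between 4.60 and 6.34 over the 8 libraries.

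Stat6, the factor of interleukin-4 and interleukin-13 signals, was at 32.2 and 40.5 CPM in wild-type DMSO, 42.1 and 48.6 CPM in wild-type DMXAA, 44.7 and 40.9 CPM in knockout-labelled DMSO, and 48.6 and 40.1 CPM in knockout-labelled DMXAA libraries. Wild-type DMSO held the lowest library and the other 3 groups overlapped. The wild-type effect was 0.32 on the log2 scale (95% interval -0.05 to 0.68, adjusted p = 0.471), and that in knockout-labelled libraries 0.05 (95% interval -0.31 to 0.42, adjusted p = 0.989). The difference between these effects was -0.26 (95% interval -0.78 to 0.25, adjusted p = 0.800). The end of Stat6 overlaps 40 bp of exon of Nab2 on the other strand, and the strand setting of the counting is not given in the sources used here.

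In sum over the 6 members, 1 passed the test in the wild-type DMXAA comparison, 0 in the knockout-labelled one, 1 in the difference of the effects, 0 between genotypes under DMSO and 1 between genotypes under DMXAA, and it was Stat2 each time. At an unadjusted p under 0.05 the numbers were 1, 1, 1, 0 and 1. The 1 in the knockout-labelled comparison was Stat5b, at rank 1153 of the 17055 genes tested, so many genes fell under that cut. The share of all genes under it was not computed, so counts at an unadjusted p, here and elsewhere, have no background beside them. DESeq2 at its adjusted p gave the same numbers of calls as edgeR. Between genotypes under DMSO, 0.223% of all genes were called, 0.182% as higher and 0.041% as lower. The wild-type intervals left room for a rise of up to 0.68 in Stat6, 0.52 in Stat5a and 0.36 in Stat5b, and for a fall of Stat3 to -0.36, on the log2 scale, so the lack of a call does not show that they stayed the same.

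**Figure D2:**
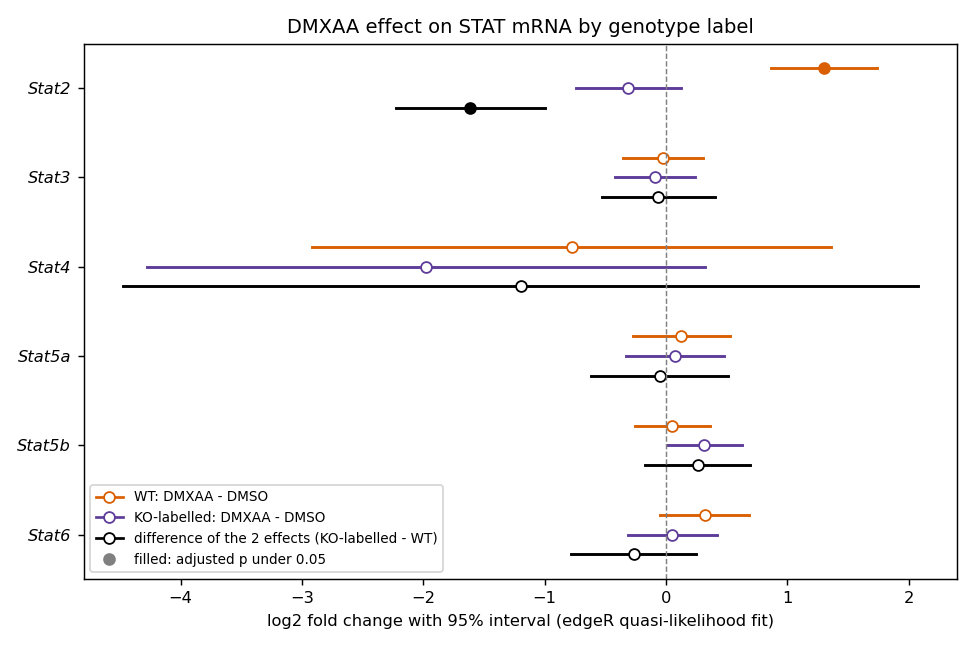
Log2 fold change (x axis) of each STAT gene with its 95% interval from the edgeR fit, for DMXAA against DMSO in wild-type (orange), in knockout-labelled libraries (purple), and for the difference of the 2 effects (black); filled points have an adjusted p under 0.05. The filled points are those of Stat2, at 1.30 in wild-type and -1.62 for the difference, and the intervals of Stat4 span the widest range.

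Levels of different genes were compared per kb of exon, since longer mRNAs give more reads. In CPM per kb, Stat3 was first with 53.5 ± 5.54 (SD over n = 8 libraries), followed by Stat2 with 16.4 ± 9.14, Stat5b with 13.1 ± 1.30, Stat6 with 9.59 ± 1.21, Stat5a with 2.35 ± 0.198 and Stat4 with 0.0988 ± 0.0779. Stat3 was above every other member in all 8 libraries, and Stat5a and Stat4 were below the other 4 in all 8. Without the 2 wild-type DMXAA libraries the order of the second and the third turned, with 12.8 ± 1.38 for Stat5b and 11.6 ± 2.10 for Stat2 (SD, n = 6), and Stat2 was below Stat5b in 3 of these 6 libraries and below Stat6 in 1. Stat2 and Stat5b were neighbours whose ranges overlapped, 7.57 to 32.99 and 10.7 to 14.6 CPM per kb. Stat5b and Stat6 also overlapped in range, since Stat6 lay between 7.31 and 11.04 CPM per kb. Stat2 took second place clearly in the wild-type DMXAA libraries, at 28.5 and 32.99 CPM per kb against 14.4 and 13.0 for Stat5b.

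The make-up of the STAT mRNA pool shifted with Stat2. Of the summed CPM per kb of the 6 members, Stat3 made up 57.6% ± 4.90 (SD, n = 2) in wild-type islets under DMSO and 45.9% ± 0.193 under DMXAA. Stat2 made up 14.5% ± 2.58 and 29.0% ± 1.35 in the same groups. Under the knockout label the share of Stat3 was 62.5% ± 0.817 with DMSO and 60.6% ± 1.88 with DMXAA, and that of Stat2 was 12.9% ± 0.326 and 10.7% ± 3.08. The sum itself was 102 and 110 CPM per kb in the wild-type DMXAA libraries and between 83.3 and 97.0 in the other 6. With 2 libraries a group, an exact permutation test of one share cannot go below a 2-sided p of 0.333, so the shares are given without a test.

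**Figure D3:**
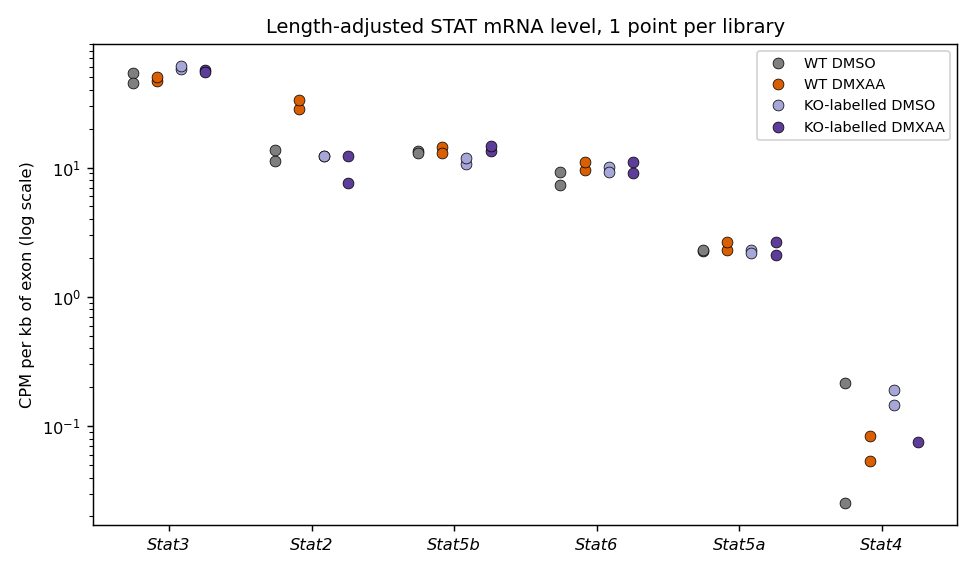
CPM per kb of exon on a log scale (y axis) for the 6 STAT genes (x axis), 1 point per library, coloured by group; the knockout-labelled DMXAA library with 0 Stat4 counts cannot be drawn on this scale. Stat3 stands highest, between 45.1 and 61.2 CPM per kb, Stat5a between 2.12 and 2.66, and the Stat2 points of wild-type DMXAA stand apart from the other Stat2 points.

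The genes lie on chromosomes 1, 10 and 11 (mm10, GENCODE M21). Stat3 (chr11:100885098-100939540, minus strand), Stat5a (chr11:100859351-100885169, plus strand) and Stat5b (chr11:100780731-100850724, minus strand) form a cluster, Stat2 (chr10:128270559-128292849) and Stat6 (chr10:127642986-127660957) share chromosome 10 on the plus strand, and Stat4 (chr1:51987148-52107189) lies alone. The last 72 bp of Stat3 and Stat5a overlap in exons on opposite strands. Stat3 had 8289 to 11152 counts per library and Stat5a 248 to 365, so without a known strand setting a small share of the Stat5a count may belong to Stat3.

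Among 12776 genes with an official symbol and a mean of at least 1 CPM, Tap1, Uba7, Trim12a, Samd9l and Trim21 had the profiles nearest to that of Stat2 over the 8 libraries. The measure was the root mean square difference of log2 CPM after each gene was centred on its own mean, which was 0.169 for Tap1, 0.185 for Uba7, 0.192 for Trim12a, 0.198 for Samd9l and 0.209 for Trim21, against a median of 0.720 over all genes compared. Tap1, a subunit of the peptide transporter that loads class I molecules, had 28.0 and 29.3 CPM in wild-type DMSO and 64.2 and 63.4 CPM in wild-type DMXAA libraries. Uba7, the enzyme that activates the ubiquitin-like protein ISG15, went from 25.5 and 30.7 to 51.8 and 62.7 CPM. In the second knockout-labelled DMXAA library, where Stat2 was at its lowest, Tap1 was at 21.3 CPM and Uba7 at 17.03 CPM, their lowest levels too. The nearness was found in these libraries and is a description. The 5 profiles nearest to that of Stat4 were those of Ppp1r17, Bach2, Impg2, Mir17hg and Rnaset2a, which were 0.412 to 0.604 away, against a median of 1.02.

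**Figure D4:**
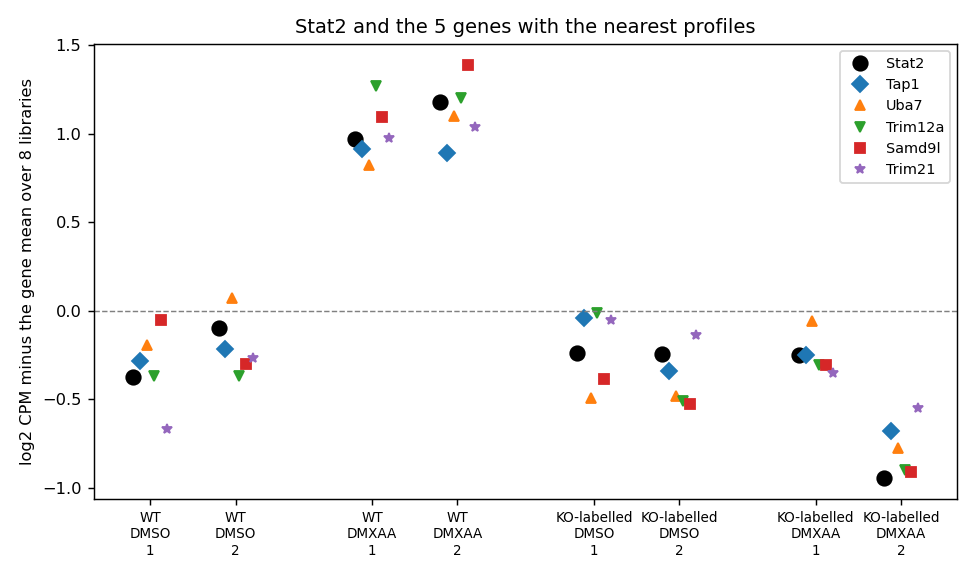
Log2 CPM minus the mean of the gene over the 8 libraries (y axis) in each library (x axis, replicate number on the last line) for Stat2 and the 5 genes with the nearest profiles, chosen by that nearness. The 6 genes lie between 0.83 (Uba7) and 1.39 (Samd9l) in the wild-type DMXAA libraries and reach at most 0.07 (Uba7) in the other 6 libraries.

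Around the STATs, most ligand genes had too few reads to test, and interferon beta was the ligand with the largest rise. Of 29 cytokine genes listed, 12 passed the filter on low counts. After DMXAA in wild-type islets 2 of these rose and none fell, where 1.11% of all genes tested were called higher. Their median log2 fold change was 0.42 against -7e-04 over all genes tested. Ifnb1, the interferon whose receptor signals through STAT2, had no count in either wild-type DMSO library and 536 and 261 counts in the wild-type DMXAA libraries. It was at least 277-fold higher, taking 3 counts over the DMSO group as the floor (adjusted p = 4.37e-06). It had 3 and 0 counts in knockout-labelled DMXAA libraries. Csf3, the granulocyte growth factor whose receptor activates STAT3, rose from 0.316 and 0.394 to 1.51 and 2.34 CPM (adjusted p = 0.0474). That call was lost in 6 of the 8 fits that left out a library. Il6, the classical STAT3 ligand, was at 38.6 and 32.9 CPM and then at 64.9 and 124 CPM. These pairs were apart, as in 46.3% of all genes tested, but Il6 was not called (log2 fold change 1.41, SE 0.29, adjusted p = 0.0573). Il15, which signals through STAT5, had a log2 fold change of 1.91 (adjusted p = 0.0921), and in DMXAA it was lower under the knockout label (log2 difference -2.26, adjusted p = 0.0354), a call that 6 of the 8 fits without a library did not keep. Thpo, the platelet growth factor whose receptor activates STAT5, was also lower there (log2 difference -1.87, adjusted p = 0.0321), again lost in 6 of the 8 fits.

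The receptors called in the wild-type DMXAA comparison were all lower, and the chains of the interferon receptor were not among them. Of 36 receptor genes listed 28 were tested, and 3 fell in wild-type islets with DMXAA while none rose, with a median of -0.14. Over all genes tested, 0.375% were called lower and 1.11% higher there. Il4ra, the chain that recruits STAT6 for interleukin-4 and interleukin-13, was at 27.0 and 29.8 CPM in wild-type DMSO, 11.1 and 15.9 CPM in wild-type DMXAA, 32.2 and 28.2 CPM in knockout-labelled DMSO, and 36.0 and 43.2 CPM in knockout-labelled DMXAA libraries. The wild-type DMXAA libraries were the lowest 2 of the 8. The fall was 1.07 in size (log2 fold change -1.07, SE 0.20, adjusted p = 0.0104), and the DMXAA effects differed between genotypes by 1.46 (SE 0.27, adjusted p = 0.0147), which 3 of the 8 fits without a library did not call. With wild-type DMXAA replicate 1 left out the wild-type call did not hold (log2 fold change -0.84, adjusted p = 0.219).

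Csf2rb, the shared beta chain for interleukin-3, interleukin-5 and GM-CSF that activates STAT5, was at 9.10 and 5.02 CPM in wild-type DMSO and 1.72 and 2.13 CPM in wild-type DMXAA libraries, a log2 fold change of -1.86 (SE 0.36, adjusted p = 0.0169). Il7r, the interleukin-7 receptor chain, also upstream of STAT5, was at 9.63 and 6.05 and then at 2.58 and 2.55 CPM, a log2 fold change of -1.60 (SE 0.36, adjusted p = 0.0444). These calls were lost in 3 and 5 of the 8 fits that left out a library, that without replicate 1 of wild-type DMSO among them (adjusted p = 0.249 and 0.529). Endothelial markers summed to 918 to 1170 CPM in wild-type DMSO and 732 to 754 CPM in wild-type DMXAA libraries. Of these 13 markers 3 were called lower, against 0.375% of all genes tested. Dendritic cell markers, 5 genes, summed to 10.1 to 11.7 CPM in wild-type DMSO and 6.08 to 6.24 CPM in wild-type DMXAA libraries. Of the 2 tested, 1 was called lower. Of the 14 macrophage markers none was called, and 6 had a log2 fold change above 0. The part of endothelial cells, dendritic cells and macrophages in the fall of these receptors was not tested. Il7r is itself a T cell marker. The other 12 markers of T cells and natural killer cells summed to 3.31 and 1.43 CPM in wild-type DMSO libraries. In wild-type DMXAA libraries they summed to 2.26 and 3.90 CPM. Of this, 1 gene, Lck, made up 1.67 and 3.33 CPM, against 0.526 and 0.984 CPM under DMSO. Of the 5 markers tested, Il7r among them, 1 had a log2 fold change above 0, and the median was -0.50. In knockout-labelled libraries the 12 markers without Il7r summed to 10.003 and 8.21 CPM under DMSO and to 2.76 and 2.75 CPM under DMXAA. Il7r itself was at 4.73 and 4.93 and then at 10.2 and 5.09 CPM there. The part of T cells and natural killer cells was not tested either. The interferon receptor chains were not called: Ifnar1 had a log2 fold change of -0.23 (adjusted p = 0.583) and Ifnar2 one of 0.16 (adjusted p = 0.736). Prlr, the prolactin receptor upstream of STAT5, was at 465 ± 144 CPM in wild-type DMSO and 320 ± 17.2 CPM in wild-type DMXAA libraries (SD, n = 2, adjusted p = 0.324).

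None of the 4 JAK kinases, which phosphorylate the STATs, passed the test in any of the 5 comparisons. In wild-type islets the log2 fold changes with DMXAA were -0.12 for Jak1 (adjusted p = 0.745), 0.21 for Jak3 (adjusted p = 0.813), 0.08 for Tyk2 (adjusted p = 0.874) and 0.05 for Jak2 (adjusted p = 0.905). At an unadjusted p under 0.05 none of them passed in either DMXAA comparison, and 2 did between genotypes under DMXAA.

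Of the 22 tested inhibitors and partners of STATs, 3 rose in wild-type islets with DMXAA and none fell, with a median of 0.04. The share of all genes tested that were called higher was 1.11%. Socs1, the inhibitor that blocks JAK kinases at interferon receptors, was at 0.999 and 1.57 CPM in wild-type DMSO, 11.9 and 8.79 CPM in wild-type DMXAA, 3.80 and 1.59 CPM in knockout-labelled DMSO and 1.79 and 2.57 CPM in knockout-labelled DMXAA libraries. Its rise (log2 fold change 2.99, SE 0.40, adjusted p = 0.000788) held with each library left out in turn. Usp18, a protease that removes ISG15 and is held at the interferon receptor by STAT2, rose from 23.0 and 18.0 to 57.4 and 58.7 CPM, a log2 fold change of 1.504 (SE 0.22, adjusted p = 0.00197). Irf9, the DNA-binding partner of STAT2, rose from 41.6 and 46.3 to 63.9 and 88.7 CPM, a log2 fold change of 0.80 (SE 0.17, adjusted p = 0.0310), and this call was lost in 4 of the 8 fits that left out a library, among them that without wild-type DMXAA replicate 2 (log2 fold change 0.54, adjusted p = 0.526). With the 4 compared libraries fitted alone, the wild-type calls of Irf9 (adjusted p = 0.154), Il4ra (adjusted p = 0.0713), Csf2rb (adjusted p = 0.0851), Il7r (adjusted p = 0.0780) and Csf3 (adjusted p = 0.126) did not hold. In knockout-labelled DMXAA libraries Irf9 was at 40.8 and 38.9 CPM. Socs3, the inhibitor induced by STAT3, was not called (log2 fold change 0.31, adjusted p = 0.650), and neither was Cish, that induced by STAT5 (0.57, adjusted p = 0.258).

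Known targets of each STAT were followed as separate lists. Of 20 listed targets of the STAT2 complex, 17 rose with DMXAA in wild-type islets, against 1.11% of all genes tested. All 20 values lay above 0 with a median of 2.46 on the log2 scale. The list was drawn up with these results known, so its direction is a description. The part of the STAT2 complex in these rises, against that of other factors, was not tested. Oasl1, an antiviral protein of the oligoadenylate synthetase family, rose from 6.47 ± 0.594 to 252 ± 4.78 CPM (SD, n = 2, log2 fold change 5.28, SE 0.19, adjusted p = 5.16e-09). Ifit1, which binds foreign RNA caps, rose from 12.3 ± 1.68 to 439 ± 16.5 CPM, Ifit3, its partner, from 7.52 ± 1.12 to 333 ± 84.5 CPM, and Cmpk2, a mitochondrial nucleotide kinase, from 28.0 ± 2.42 to 350 ± 0.172 CPM. The 3 that were not called were Zbp1 (2.30, adjusted p = 0.0842), Bst2 (0.92, adjusted p = 0.167) and Oas2 (0.96, adjusted p = 0.403). The Stat2 rise of 1.30 was smaller than the median of these targets.

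In the knockout-labelled libraries 0 of the 20 targets of the STAT2 complex were called with DMXAA (4 at an unadjusted p under 0.05). Still, 18 of the 20 values lay above 0, and the median was 0.37 against -6e-04 over all genes tested. The DMXAA effects differed between genotypes for 12 of the 20, all with a lower log2 fold change under the knockout label, against 0.528% of all genes tested. Of the 20 targets 14 had a RefSeq window, and 8 of these held the element core printed in capitals for Stat2. They were Bst2, Ifih1, Ifit1, Ifit3, Isg15, Oas1a, Oas3 and Rsad2, and of all 27025 genes with a window 3.99% held it. The list was made of known targets of the complex that binds this element, so its share is only a description.

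Targets of the other STATs showed few calls. Of 15 tested STAT3 targets none was called in wild-type islets with DMXAA (5 at an unadjusted p under 0.05), with a median of 0.35. Pim1, a kinase gene that STAT3 and STAT5 induce, came nearest, at 10.6 ± 3.85 and 21.0 ± 1.93 CPM, with a log2 fold change of 0.98 (SE 0.23, adjusted p = 0.0612). Of 8 tested STAT5 targets none was called, with a median of 8e-04. Of 4 tested STAT6 targets 1 fell, against 0.375% of all genes tested, and it was Il4ra, the receptor already given. Of STAT4 targets only 2 were tested, Il18r1 at -0.80 (adjusted p = 0.606) and Furin at 0.19 (adjusted p = 0.682).

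Between genotypes under DMSO, none of the 20 targets of the STAT2 complex was called (9 at an unadjusted p under 0.05). Only 1 of these 20 had a value above 0, with a median of -0.44 against 3e-04 over all genes tested. In all, 1 gene of the JAK-STAT lists was called there. Cebpd, a transcription factor gene that STAT3 induces, was at 91.6 and 112 CPM in wild-type DMSO and 243 and 254 CPM in knockout-labelled DMSO libraries (log2 difference 1.29, SE 0.20, adjusted p = 0.0248). In this comparison 0.182% of all genes tested were called higher. Cebpd was the 1 called of 15 STAT3 targets, of which 12 had values above 0, with a median of 0.73 against 3e-04 over all genes tested. The call was lost in 3 of the 8 fits that left out a library, without knockout-labelled DMSO replicate 1 (adjusted p = 0.189), replicate 2 (adjusted p = 0.211) or wild-type DMSO replicate 1 (adjusted p = 0.124). In the same comparison B cell markers summed to 3.49 and 25.6 CPM in wild-type and to 87.8 and 72.5 CPM in knockout-labelled libraries. Under DMXAA Cebpd was at 95.8 and 129 CPM in wild-type and 165 and 240 CPM in knockout-labelled libraries. That difference was also called, but not in every fit that left out a library (log2 differences from 0.54 to 1.09). B cell markers summed to 2.75 and 5.52 CPM and to 5.08 and 10.2 CPM in these libraries. The part of B cells in the Cebpd differences was not tested.

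**Figure D5:**
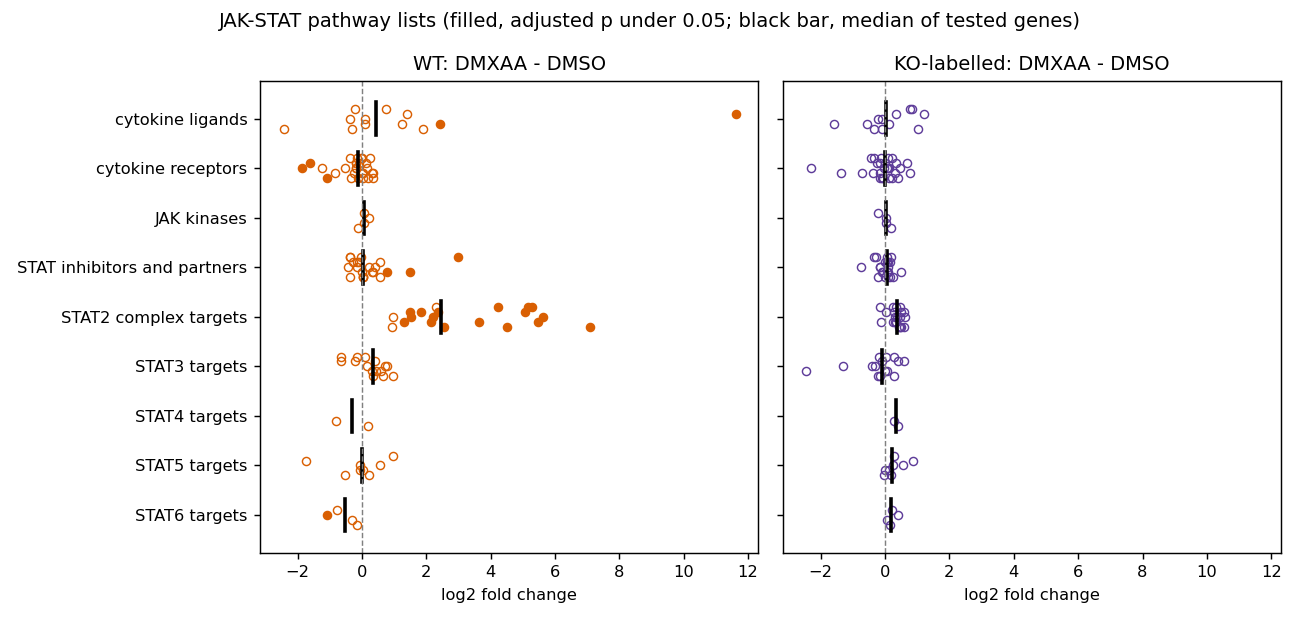
Log2 fold change with DMXAA (x axis) of every tested gene of the 9 JAK-STAT lists, in wild-type (left) and knockout-labelled libraries (right); filled points have an adjusted p under 0.05 and black bars are list medians. The filled points on the left are mostly targets of the STAT2 complex, with a median of 2.46, none is filled on the right, and the point at the far right is Ifnb1, whose fitted value depends on the model's prior count because the DMSO libraries had no read.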

How the data were processed

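Each deposited file gives raw read counts per gene for 1 library, and the submitters' processing notes name HISAT2, HTSeq and mm10 without versions. The strand setting and annotation release were not given in the sources used here. Symbols, coordinates and merged exon lengths came from GENCODE M21 on the same build, and 54409 of 54532 identifiers had a symbol. Counts were analysed with edgeR 4.0.16 in R 4.3.3: filterByExpr left 17055 genes, TMM scaled the libraries, and a model with 1 term per group took in all 8 libraries with robust quasi-likelihood dispersion (legacy=FALSE). The coefficient of variation between libraries, the root of edgeR's common dispersion, came to 17.1%. An adjusted p (Benjamini-Hochberg) under 0.05 over all tested genes was called. CPM was computed from the deposited counts with TMM-scaled library sizes, and SE is the size of the log2 fold change over the root of F. Intervals cover the spread between libraries, and the floor of 3 counts covers counting error only. Named were the members, genes of nearest profile and Sting1. From each pathway list came up to 4 genes with the smallest p in the wild-type DMXAA comparison and some genes called in another. Cd14, Lyz2, Lck, Cd3e, Ifnar1, Ifnar2, Socs3, the uncalled targets of the STAT2 complex and Ncr1 were added after their values were seen. The members, lists and tests were chosen with earlier results of these data known. A further gene was left out of the search for near profiles and is not reported here. Scripts were tested on simulated data. Alternatives were DESeq2 1.42.0, its size factors, no filter, the older quasi-likelihood form, a replicate block, the compared libraries alone and each library left out.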

Additional observations from a re-analysis of the deposited data

Results flagged for a closer look

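The DMXAA effect on Stat2 differed between the genotypes: the difference, knockout-labelled minus wild-type, was -1.62 on the log2 scale (SE 0.28, adjusted p = 0.0105 by edgeR's quasi-likelihood test of the interaction). Both wild-type DMXAA libraries were above both wild-type DMSO libraries, at 169 and 196 against 66.7 and 80.9 CPM. Of all genes tested, 46.3% had libraries that did not overlap in that comparison. The knockout-labelled DMXAA libraries, at 72.8 and 44.9 CPM, stood at or below the knockout-labelled DMSO libraries, at 73.2 and 73.0 CPM. This gap came from replicate 2 of knockout-labelled DMXAA. The call was not kept in 3 of the 8 fits that left out a library (adjusted p = 0.0718, 0.0772 and 0.0849).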

How the results depend on the processing

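The rise of Stat2 in wild-type islets was called under DESeq2, its size factors, no filter, the older form of the fit, a replicate block and the 4 compared libraries alone, with log2 fold changes from 1.30 to 1.32, and the number of members called was unchanged in all 5 comparisons under these settings (the fit of 4 libraries gives no difference of the effects). With 1 library left out, the number of members called was 0 to 1 in wild-type DMXAA against DMSO, 0 to 1 for the difference of the effects, 0 in the knockout-labelled comparison, 0 between genotypes under DMSO and 1 under DMXAA, and a lone library was then assumed to vary like the other groups. The Stat2 fold change ranged from 1.19 to 1.45 and the difference of its effects from -2.0045 to -1.30. Over all genes, calls ranged from 160 to 994 in wild-type, 3 to 129 in knockout-labelled libraries, 87 to 304 for the difference, and 3 to 240 and 205 to 674 between genotypes under DMSO and DMXAA. Without a single library the sign turned for uncalled members. Under the knockout label the log2 changes ranged from -0.70 to 0.0142 for Stat2, -0.067 to 0.23 for Stat5a and -0.087 to 0.20 for Stat6. In wild-type they ranged from -0.15 to 0.12 for Stat3, -1.64 to 1.38 for Stat4 and -0.0233 to 0.13 for Stat5b. For the difference of the effects they ranged from -0.21 to 0.0638 for Stat3 and -0.21 to 0.10 for Stat5a. Between genotypes under DMSO they ranged from -0.16 to 0.13 for Stat2, -0.38 to 2.62 for Stat4 and -0.074 to 0.0082 for Stat5a. Under DMXAA they ranged from -5.30 to 0.12 for Stat4, -0.24 to 0.0856 for Stat5a, -0.04 to 0.11 for Stat5b and -0.17 to 0.093 for Stat6.

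Genes called in the knockout-labelled DMXAA comparison numbered 64, but 148 with DESeq2, 177 without a filter, 29 with the older form and 129 with the 4 compared libraries alone. Between genotypes under DMSO the number was 38, and 152, 159, 17 and 25 under the same settings. The cause was not tested.

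The replicate numbers were not shown to pair the libraries: deviations of same-numbered libraries correlated between -0.0999 and 0.0746 over 17055 genes, and each group holds only 2 numbers. With the replicate number as a block the Stat2 fold change was 1.30 (adjusted p = 0.00347), the difference of its effects -1.62 (adjusted p = 0.0124), and 259 genes were called in wild-type against 253 without it. No member's call changed with the block. Stat4 had only 0 to 16 counts per library.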
